A study of Mus musculus with 38 samples.

Results

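The 8 laminin subunit genes described here are Lama2, Lama3, Lama4, Lama5, Lamb1, Lamb2, Lamb3 and Lamc1, taken by name from the 29564 genes of the deposited tables. All 8 were among the 13765 genes with enough counts to be tested. Their RNA was measured by RNA-seq in left ventricle from 38 mice with 1 library per mouse. The non_failing group (n = 8) was given vehicle, and the HFpEF+Veh (n = 8), HFpEF+TYA-018 (n = 11) and HFpEF+SGLT2i (n = 11) groups had heart failure with preserved ejection fraction (HFpEF) from a high-fat diet together with L-NAME, an inhibitor of nitric oxide synthases. TYA-018 inhibits the deacetylase HDAC6, and the SGLT2 inhibitor was empagliflozin, which blocks glucose uptake in the kidney. All mice were wild type on a C57BL6 background, the drugs and vehicle were given by mouth, and no age at tissue collection is stated in the labels. The labels and the study's methods disagree on sex and on treatment length, so neither was used.

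Laminins are large secreted glycoproteins, each assembled from an alpha, a beta and a gamma chain. They polymerise into the sheet of the basement membrane, and the end of the alpha chain binds integrins and dystroglycan on the cell surface. In the heart, Lama2 encodes the alpha chain around muscle cells, Lama4 and Lama5 encode alpha chains of vessel walls, Lamb1 and Lamb2 are the broadly used beta chains and Lamc1 is the common gamma chain, while Lama3 and Lamb3 are best known from epithelia such as skin. Since the tissue was bulk ventricle, fewer cells of a type and less RNA per cell cannot be told apart in any value below.

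Libraries held 21451631 to 59280407 estimated counts. The cardiomyocyte markers Myh6, Myl2, Tnnt2, Tnni3, Actc1 and Ryr2 were present in every library, with a sum of 19761 to 38746 CPM (counts scaled to the size of the library), whereas the adipocyte list never exceeded 0.694 CPM. Vehicle library V2523 carried liver transcripts, with albumin (Alb) at 1045 CPM, where the next highest vehicle heart had 20.8 CPM, and also Krt19 at 72.4 and Cdh1 at 20.7 CPM. Liver transcripts were not limited to it: the 5 hepatocyte markers summed to 21.4 to 361 CPM in the non_failing libraries (median 59.4), against medians of 3.02 CPM in HFpEF+Veh, 0.740 in HFpEF+TYA-018 and 1.29 in HFpEF+SGLT2i. Vehicle library V2530 had the highest level of the fibroblast proteoglycan gene Dcn, 720 CPM. Without these 2 libraries the comparison of HFpEF+TYA-018 with HFpEF+Veh called 1 gene in place of 266, and that of HFpEF+SGLT2i with HFpEF+Veh called 0 in place of 117 (edgeR).

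The subunits spanned a wide range of levels, which were compared between genes in TPM, a unit that allows for transcript length. Lamb2 stood highest with a median of 59.2 TPM over the 38 libraries (37.9 to 74.8) and was above Lamc1 in 38 of 38. Lamc1 had a median of 33.6 TPM (28.7 to 46.1) and Lama5 32.6 TPM (18.4 to 63.9), and these neighbours could not be ordered, with Lamc1 the higher in 20 of 38 libraries. Lama4 followed at 16.7 TPM (9.80 to 29.1), below Lama5 in 38 of 38 and above Lamb1 in 37 of 38 libraries. Lamb1 lay at 8.25 TPM (5.83 to 11.6). The last members were Lama2 at 2.22 TPM (1.52 to 3.19), Lamb3 at 1.43 TPM (0.801 to 2.48) and Lama3 at 0.447 TPM (0.247 to 0.978). Lama2 was above Lamb3 in 34 of 38 libraries and Lamb3 above Lama3 in 37 of 38. The median of Lamb2 was 132 times that of Lama3.

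**Figure D1:**
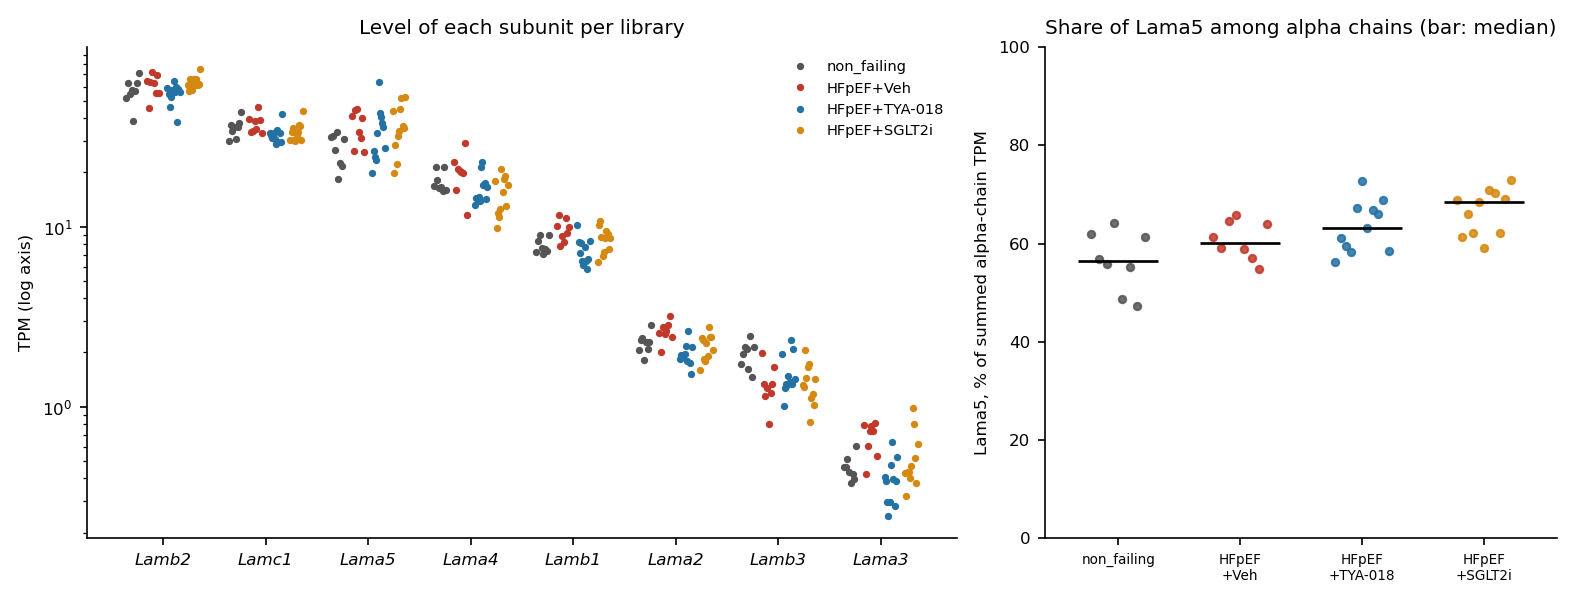
Left, deposited TPM of each laminin subunit (log axis), 1 point per library and coloured by group, with genes in the order of their median over 38 libraries. Right, Lama5 as a percentage of the summed TPM of the 4 alpha chains, with the group median as a bar; the median is 56.4% in non_failing and 68.4% in HFpEF+SGLT2i, and the groups overlap.

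Within the alpha chains, Lama5 and Lama4 held most of the transcripts. Lama5 made up a median of 62.1% of summed alpha-chain TPM (47.3 to 72.9% over 38 libraries) and Lama4 32.3% (23.4 to 46.9%). Lama2, the muscle chain, made up 4.35% (2.46 to 7.46%), and Lama3 0.923% (0.487 to 1.54%). Among the beta chains, Lamb2 held 85.7% (77.8 to 89.4%), Lamb1 11.9% (8.54 to 19.9%) and Lamb3 2.17% (1.12 to 3.74%). The highest share of Lamb1 was in V2523, which had the highest Lamb1 and the lowest Lamb2 of the vehicle hearts. By group the median share of Lama5 was 56.4% in non_failing, 60.1% in HFpEF+Veh, 63.1% in HFpEF+TYA-018 and 68.4% in HFpEF+SGLT2i, with overlapping ranges. These shares depend on which transcripts the reads were assigned to. The effective length of Lama4 in the deposited table ran from 1840 to 4423 bases between libraries and that of Lamc1 from 1487 to 3212, against 6046 and 7622 bases for their longest coding transcripts. Groups were therefore compared on counts, as CPM, and not on TPM.

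Positions are from GENCODE M21 on GRCm38. Lamc1 spans chr1:153218922-153332786 on the minus strand and Lamb3 chr1:193207699-193343878 on the plus strand. Lama2 spans chr10:26980036-27619758 on the minus strand and Lama4 chr10:38965515-39110188 on the plus strand. Lama5 lies at chr2:180176373-180225859 on the minus strand, Lamb2 at chr9:108479736-108490530 and Lamb1 at chr12:31265234-31329644, both on the plus strand. Exons of Lama2 overlap the antisense gene Gm48084 and exons of Lama3 overlap Gm29200; no exon of the other members overlaps another gene. The libraries were made with a strand-marking kit, but the strand setting of the counting is not given in the sources used here, so reads of these overlaps are uncertain.

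RefSeq (GRCm38.p6) gave promoter sequence for 5 members. Bases before a RefSeq start are shown for Lamb3, the member with the most widely called difference, and for Lama5 and Lamb1, which related to Lamc1 in opposite directions. For Lamb3 this is an internal start, since longer GENCODE transcripts begin upstream of it. The Lamb1 sequence is cut to the 191 bases that lie before its GENCODE span. Capitals mark GGGCGG, the GC box, on either strand (CCGCCC on the other).
Lamb3 (chr1:193301744-193301993, plus strand): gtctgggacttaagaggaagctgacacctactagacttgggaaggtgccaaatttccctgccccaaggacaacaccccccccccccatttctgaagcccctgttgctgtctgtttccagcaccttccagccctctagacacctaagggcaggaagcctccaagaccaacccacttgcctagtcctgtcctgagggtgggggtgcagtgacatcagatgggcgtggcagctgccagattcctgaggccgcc
Lama5 (chr2:180225860-180226109, minus strand): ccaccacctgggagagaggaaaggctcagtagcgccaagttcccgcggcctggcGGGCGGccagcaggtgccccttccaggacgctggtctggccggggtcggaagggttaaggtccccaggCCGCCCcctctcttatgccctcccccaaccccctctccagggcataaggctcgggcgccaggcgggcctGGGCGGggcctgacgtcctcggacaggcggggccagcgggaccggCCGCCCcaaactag
Lamb1 (chr12:31265043-31265233, plus strand): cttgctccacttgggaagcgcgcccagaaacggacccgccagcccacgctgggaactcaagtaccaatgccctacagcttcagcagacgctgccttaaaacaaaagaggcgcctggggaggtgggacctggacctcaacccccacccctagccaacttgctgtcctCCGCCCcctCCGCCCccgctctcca
Over windows of 250 bases the Lama5 sequence was 72.4% G or C with 19 CpG and 4 GC boxes, the Lamb1 sequence 62% with 14 CpG and 2 GC boxes, and the Lamb3 sequence 58.8% with 2 CpG and none. A second RefSeq window for Lamb3, from chr1:193301993-193302242, was 61.2% G or C with 3 CpG and no GC box. Over all 32851 promoters of this length the median was 52.4% G or C and 6 CpG, and 32.7% held GGGCGG on either strand. None of the promoter sequences of the 5 members held TGACTCA (AP-1; 4.46% of all promoters) or TATAAA (the TATA box; 12.4%), which says only that these letters are not in this window.

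**Figure D2:**
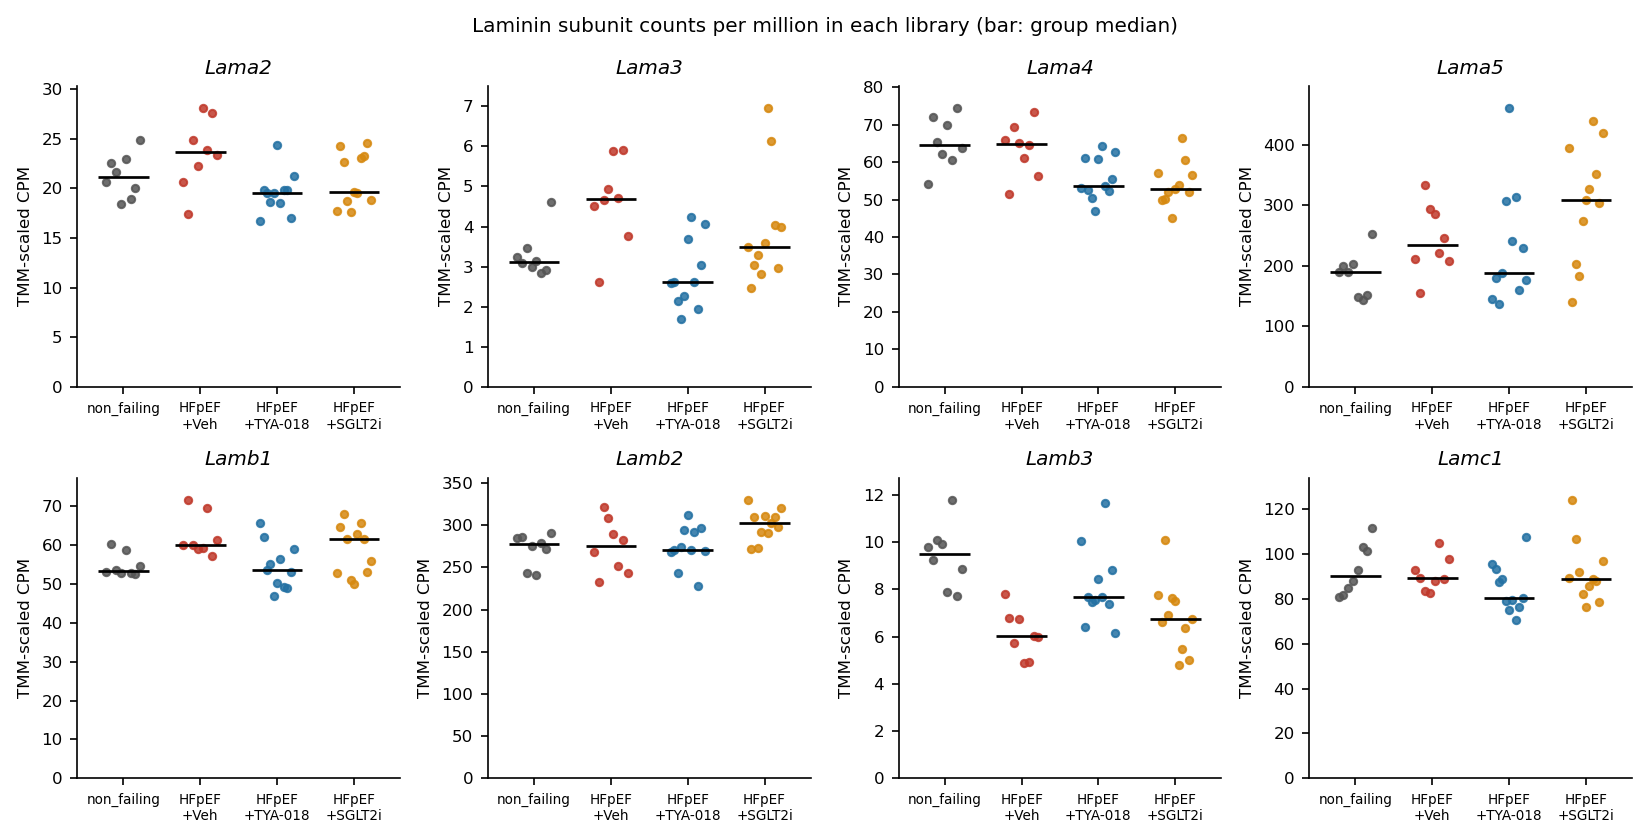
TMM-scaled CPM of each subunit, 1 point per library in 4 groups, with the group median as a bar and each axis starting at 0. Lamb3 lies lower in HFpEF+Veh (4.87 to 7.80) than in non_failing (7.73 to 11.8), and Lama5 spreads from 137 to 461 in HFpEF+TYA-018.

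The first comparison, HFpEF+Veh against non_failing, asks what the disease model did. Of the 8 members 1 was called, Lamb3, which was lower, and 3 had an unadjusted p under 0.05. Over all genes 3.15% were called (1.77% higher and 1.38% lower), 15.9% had an unadjusted p under 0.05, and 0.61% had ranges that did not overlap, which none of the members had. Lamb3, the beta chain of the epithelial laminin, ran from 7.73 to 11.8 CPM in non_failing (median 9.52) and from 4.87 to 7.80 CPM in HFpEF+Veh (median 6.01). The groups met at a single library: 7 of 8 vehicle hearts lay below every non_failing heart. The log2 fold change was -0.62 (SE 0.13; edgeR quasi-likelihood test, adjusted p = 0.0038). It was called in 38 of 38 fits that each left out 1 library. It was also called with each of the 7 other ways of fitting given under the methods. A covariate for base composition, described later, kept the call too. Without V2523 and V2530 the median of HFpEF+Veh was 5.86 CPM.

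Among the other members, 5 were higher and 2 lower in HFpEF+Veh than in non_failing, none past the threshold. Lama3, the alpha chain that partners Lamb3 in epithelia, moved the other way from it in the fit. It ran from 2.85 to 4.62 CPM in non_failing (median 3.12) and from 2.61 to 5.92 in HFpEF+Veh (median 4.69). Of the 8 vehicle hearts 5 lay above every non_failing heart and 1, V2523, below all of them, and the fitted difference was 0.49 on the log2 scale (SE 0.20, adjusted p = 0.192). Over the fits that left out 1 library the adjusted p ran from 0.0792 (without V2523) to 0.343 (without V2530). Lamb1 ran from 52.5 to 60.3 CPM in non_failing and from 57.2 to 71.7 in HFpEF+Veh, and all 8 vehicle hearts lay above the non_failing mean (log2 fold change 0.18, SE 0.07, adjusted p = 0.170). Lamb2, Lama4 and Lamc1, which are among the abundant members, had log2 fold changes of 0.02, -0.04 and -0.03. The median log2 fold change of the 8 members was 0.08, against 0.01 over all genes.

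The remaining members overlapped widely in these groups. Lama2 ran from 18.4 to 24.9 CPM in non_failing (median 21.2) and from 17.5 to 28.1 CPM in HFpEF+Veh (log2 fold change 0.15, SE 0.09, adjusted p = 0.429). Lama5 ran from 143 to 252 CPM and from 154 to 333 CPM, with 7 of 8 vehicle hearts above the non_failing mean (0.40, SE 0.22, adjusted p = 0.374). V2523 was the lowest vehicle heart for Lama2, Lama3, Lama4, Lama5 and Lamb2.

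Lamb2 ran from 241 to 291 CPM in non_failing, 232 to 321 in HFpEF+Veh, 227 to 313 in HFpEF+TYA-018 and 271 to 330 in HFpEF+SGLT2i. Of the hearts given empagliflozin 8 of 11 lay above every non_failing heart, but the difference was not called (log2 fold change 0.15, SE 0.06, adjusted p = 0.161). With a covariate for base composition this log2 fold change was 0.035. Lamc1, the common gamma chain, had medians of 90.4, 89.1, 80.3 and 88.8 CPM in the same order, with its lowest heart at 70.7 CPM under TYA-018 and its highest at 124 CPM under empagliflozin. It was called in no comparison, and its 6 fitted differences lay between -0.13 and 0.01 on the log2 scale.

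Epithelial markers summed to 0 to 1.44 CPM in non_failing and 0 to 20.8 CPM in HFpEF+Veh, where the highest value was V2523, and Krt5 was at 0 in all libraries. Cardiomyocyte markers were called lower in 3 of 6, fibroblast markers higher in 2 of 6 and pericyte and smooth muscle markers lower in 2 of 6 in HFpEF+Veh against non_failing. All 3 erythroid markers had an unadjusted p under 0.05 without being called, and of the 4 mesothelial markers tested none was called, 3 had an unadjusted p under 0.05 and the fitted differences ran from -2.76 to 2.47 on the log2 scale. Summed CPM in non_failing and HFpEF+Veh ran from 29391 to 38746 and 24977 to 31239 for the cardiomyocyte list, from 344 to 521 and 450 to 984 for the fibroblast list and from 7.12 to 61.9 and 8.50 to 80.6 for the mesothelial list. They ran from 788 to 1012 and 691 to 898 for the pericyte and smooth muscle list and from 1028 to 3110 and 1583 to 12394 for the erythroid list. Their part in the laminin values was not tested.

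TYA-018 was then compared with vehicle in HFpEF hearts. Of the 8 members 1 was called, Lama3, which was lower, and 5 had an unadjusted p under 0.05. Over all genes 1.93% were called (1.1% lower), 17.5% had an unadjusted p under 0.05 and 0.0363% had ranges that did not overlap; every member's ranges overlapped. Lama3 ran from 1.69 to 4.24 CPM in HFpEF+TYA-018 (median 2.61), against 2.61 to 5.92 in HFpEF+Veh (median 4.69). All 11 treated hearts lay below the vehicle mean and 5 lay below every vehicle heart, though the ranges overlapped. The log2 fold change was -0.72 (SE 0.18; edgeR, adjusted p = 0.0286). This call was lost without V2530 (adjusted p = 0.0714) and without V2523 and V2530 (0.0778), although the log2 fold change there was -0.75. It was also lost without V2527, V2528, V2547, V2549 or V2555, with adjusted p from 0.0501 to 0.0607, and in a fit of only the 2 groups (0.0695) or with limma on log2(TPM + 1) (0.0704). All 5 hepatocyte markers were called lower in this comparison; V2523, which carried them, had the lowest Lama3 of the vehicle hearts.

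Lamb3 went the other way. It ran from 6.16 to 11.7 CPM in HFpEF+TYA-018 (median 7.66), and all 11 hearts lay above the vehicle mean, and the fitted difference was 0.41 on the log2 scale (SE 0.12, adjusted p = 0.0677). It was called in 3 of 38 fits that left out 1 library (those without V2521, V2563 or V2570) and with DESeq2 (0.40, adjusted p = 0.0436). In the other fits it was not called, with an adjusted p up to 0.273 with the length offset and 0.445 with limma on log2(TPM + 1). Lama2, the muscle alpha chain, ran from 16.7 to 24.3 CPM (median 19.6) in HFpEF+TYA-018 and from 17.5 to 28.1 CPM (median 23.6) in HFpEF+Veh, with 10 of 11 below the vehicle mean (log2 fold change -0.27, SE 0.08, adjusted p = 0.0757). It was called without V2523 (adjusted p = 0.0343) or V2550 (0.0402). It was not called without V2530 (log2 fold change -0.23, adjusted p = 0.180) or without both V2523 and V2530 (-0.29, adjusted p = 0.108). Lamb1 ran from 46.8 to 65.7 CPM, and 8 of 11 treated hearts lay below every vehicle heart (log2 fold change -0.19, SE 0.07, adjusted p = 0.112). Lamb2, the most abundant chain, had the same mean in both groups, 275 CPM (log2 fold change 0.00, 95% interval -0.12 to 0.12). The median log2 fold change of the 8 members was -0.14 against -0.01 over all genes.

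Empagliflozin was compared with vehicle in the same way, with the same vehicle libraries. None of the 8 members was called, and 3 had an unadjusted p under 0.05 (edgeR). Over all genes 0.85% were called, 10% had an unadjusted p under 0.05 and 0.0145% had ranges that did not overlap, and DESeq2 called no member. Lama4, an alpha chain of the vessel wall, ran from 45.2 to 66.3 CPM in HFpEF+SGLT2i (median 52.8) and from 51.4 to 73.3 CPM in HFpEF+Veh (median 64.9). The ranges overlapped and 10 of 11 lay below the vehicle mean (log2 fold change -0.23, SE 0.07, adjusted p = 0.157). Lama5 went from a median of 233.9 CPM in HFpEF+Veh (154 to 333) to 309.6 CPM in HFpEF+SGLT2i (140 to 440), a difference of 0.32 on the log2 scale (SE 0.21, adjusted p = 0.636). This Lama5 difference was 0.17 with a covariate for base composition, 0.11 with the length offset and 0.012 with limma on log2(TPM + 1). Lamb3 had a log2 fold change of 0.16 (95% interval -0.09 to 0.41). Of the marker lists, 5 of 5 hepatocyte and 1 of 4 mesothelial markers were called lower in this comparison. Negative values without a call were found for 3 of 3 erythroid (median log2 fold change -0.90) and 5 of 6 fibroblast markers (-0.22). In each of these lists 3 markers had an unadjusted p under 0.05. Their part in the laminin values was not tested.

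The drugs were also compared directly. None of the 8 members was called and 4 had an unadjusted p under 0.05 (edgeR); 0 genes of all 13765 were called by this test, 1821 (13.2%) had an unadjusted p under 0.05, and DESeq2 called 185 of all genes but no member. The differences with the smallest p were Lama3, -0.46 on the log2 scale for HFpEF+TYA-018 over HFpEF+SGLT2i (95% interval -0.81 to -0.12, adjusted p = 0.213), and Lamb2, -0.13 (-0.25 to -0.02, adjusted p = 0.308). For Lamb3 the difference was 0.25 (0.02 to 0.47), and for Lama5 -0.40 (-0.78 to -0.02). The Lama5 difference was -0.044 with the length offset and -0.12 with limma on log2(TPM + 1). With a covariate for base composition it was -0.37. The 95% intervals allow differences of either small or moderate size, so the drugs cannot be called alike for these members. No marker was called in this comparison, but 3 of 3 erythroid markers had positive values (median log2 fold change 0.81). An unadjusted p under 0.05 was found for 2 markers in each of the erythroid, cardiomyocyte, fibroblast, endothelial and lymphatic endothelial lists. Their part in the laminin values was not tested.

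**Figure D3:**
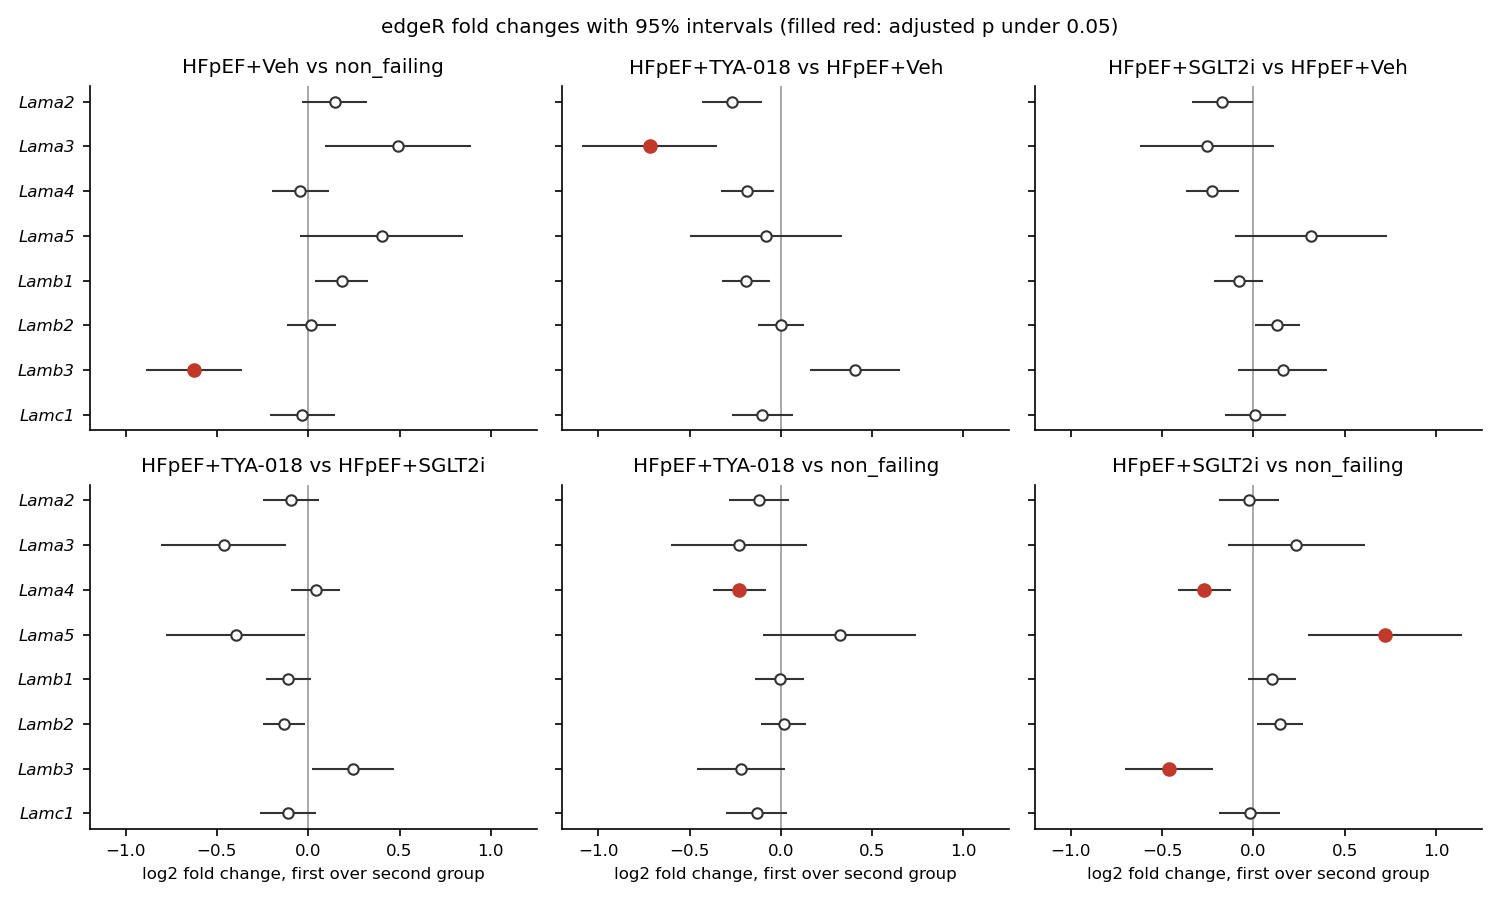
Log2 fold changes of the 8 subunits in 6 comparisons (edgeR), with 95% intervals as lines, filled red where the adjusted p was under 0.05. Lamb3 is called lower in HFpEF+Veh and HFpEF+SGLT2i against non_failing, Lama3 lower in HFpEF+TYA-018 against HFpEF+Veh, Lama4 lower under both drugs against non_failing and Lama5 higher in HFpEF+SGLT2i against non_failing.

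Against non_failing hearts, which are shared by these comparisons, edgeR called Lama4 under both drugs, and Lamb3 and Lama5 under empagliflozin; of these, the Lama4 and Lama5 calls were lost under some of the other fits. In HFpEF+TYA-018, 1 of 8 was called and 1 had an unadjusted p under 0.05, whereas 7.39% of all genes were called (3.39% lower), 22% had an unadjusted p under 0.05 and 1.04% had ranges that did not overlap. Lama4 ran from 47.0 to 64.4 CPM (median 53.6) against 54.2 to 74.4 CPM (median 64.7) in non_failing, and all 11 treated hearts lay below the non_failing mean (log2 fold change -0.23, SE 0.07; edgeR, adjusted p = 0.0440). It was called in 26 of 38 fits that left out 1 library, and lost without V2502, V2503, V2504, V2507, V2509, V2510, V2543, V2547, V2548, V2549, V2552 or V2555, where the adjusted p was 0.0502 to 0.108. Lamb3 had a log2 fold change of -0.22 (95% interval -0.46 to 0.03, adjusted p = 0.288).

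In HFpEF+SGLT2i 3 of 8 were called against non_failing, where 6.45% of all genes were (3.46% higher and 2.99% lower). Of the 8, 4 had an unadjusted p under 0.05, against 19.6% of all genes, and 0.872% of all genes had ranges that did not overlap, which no member had. Lama4 was lower, from 45.2 to 66.3 CPM (median 52.8), with 7 of 11 hearts below every non_failing heart (log2 fold change -0.27, SE 0.07, adjusted p = 0.0163), and was called in 38 of 38 fits that left out 1 library. Lamb3 was lower, from 4.81 to 10.1 CPM (median 6.76), with 9 of 11 below every non_failing heart (log2 fold change -0.46, SE 0.12, adjusted p = 0.0126). This call was kept in 38 of 38 such fits and with each of the 7 other ways of fitting. Lama5, the other vessel-wall alpha chain, was higher, with non_failing from 143 to 252 CPM (median 189.6) and 8 of 11 treated hearts above every non_failing heart (log2 fold change 0.72, SE 0.21, adjusted p = 0.0287). It was called in 32 of 38 such fits and lost without V2507, V2508, V2509, V2561, V2572 or V2575, where the log2 fold change was 0.65 to 0.68 and the adjusted p at most 0.0672. With the effective length of each library as an offset, the Lama4 log2 fold change was -0.09 (adjusted p = 0.766) for HFpEF+TYA-018 and -0.25 (adjusted p = 0.338) for HFpEF+SGLT2i, and neither was called. With limma on log2(TPM + 1) they were -0.13 (adjusted p = 0.718) and -0.23 (adjusted p = 0.457), and without a filter on low counts the adjusted p for HFpEF+TYA-018 was 0.0544. With the same offset Lama5 in HFpEF+SGLT2i against non_failing was 0.42 (adjusted p = 0.204) and with limma on log2(TPM + 1) 0.40 (adjusted p = 0.305), so this call was lost too. It was also lost with a covariate for base composition, described later, at 0.22.

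Markers of other cells moved in the comparisons of treated with non_failing hearts. In HFpEF+SGLT2i 3 of 6 cardiomyocyte, 2 of 4 mesothelial and 5 of 5 hepatocyte markers were called lower, and 1 fibroblast marker was called higher and 1 lower. In HFpEF+TYA-018 5 of 5 hepatocyte markers were called lower, 1 of 4 Schwann cell markers was called lower, 1 of 6 fibroblast and 1 of 3 erythroid markers were called higher, and of 6 pericyte and smooth muscle markers 1 was called higher and 1 lower. Endothelial markers were called in neither, with 0 of 6 at an unadjusted p under 0.05 in both. The part of these markers in the laminin values was not tested.

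The values of Lama5 moved with a property of the libraries. For each library the slope of its log2 CPM on the GC content of transcripts was taken; this slope ran from -0.15 to 0.01 log2 per 10 GC points in non_failing (median -0.08) and from -0.10 to 0.12 in HFpEF+SGLT2i (median 0.06). The Lama5 transcript is 59.9% G or C, above 94.7% of the tested genes with a value. Across the 38 libraries Lama5 correlated with the slope (r = 0.76, rho = 0.75, permutation p = 1e-05, the smallest the permutations can give; adjusted over 8 members 8e-05), and r was 0.73 without the 2 libraries farthest from the median. Within groups r was 0.67 in non_failing, 0.71 in HFpEF+Veh, 0.73 in HFpEF+TYA-018 and 0.84 in HFpEF+SGLT2i. With the slope as a covariate, chosen after the data were seen, the Lama5 log2 fold change for HFpEF+SGLT2i against non_failing fell from 0.72 to 0.22 (edgeR, adjusted p = 0.434). The slope itself differed between groups. Its mean was -0.067 in non_failing, 0.0043 in HFpEF+Veh, 0.020 in HFpEF+TYA-018 and 0.026 in HFpEF+SGLT2i. Effects of group and of slope therefore cannot be fully told apart in fits with this covariate. Lamb2, at 58.8% G or C, also followed the slope (r = 0.67, adjusted p = 8e-05), as did Lama3 more weakly (r = 0.39, adjusted p = 0.0353; rank correlation 0.35, adjusted p = 0.0646). For Lamb3 r was -0.20 (adjusted p = 0.318). The covariate also lowered differences of HFpEF+Veh against non_failing that had not been called, that of Lama3 from 0.49 to 0.26 and that of Lama5 from 0.40 to 0.05 on the log2 scale. With the same covariate the Lamb3 log2 fold changes were -0.63 for HFpEF+Veh and -0.47 for HFpEF+SGLT2i against non_failing, and both remained called.

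**Figure D4:**
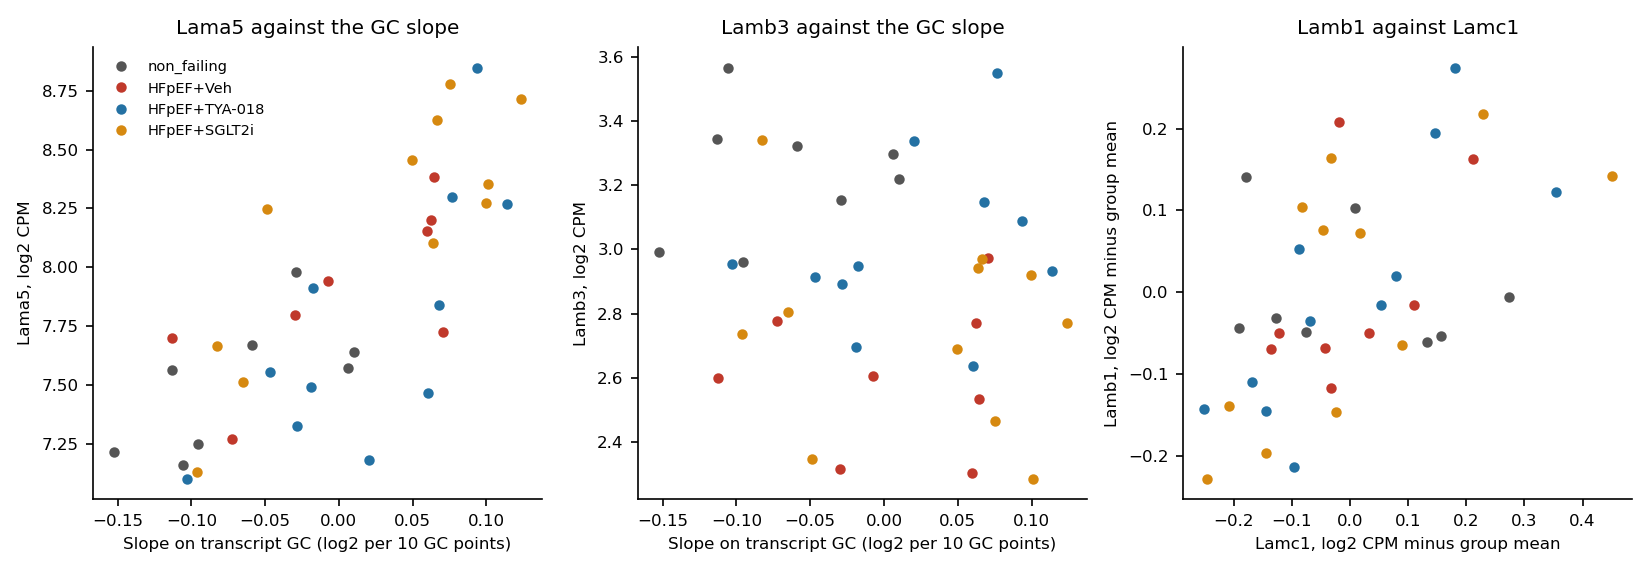
Left and centre, log2 CPM of Lama5 and Lamb3 against the GC slope of each library (log2 per 10 GC points), 1 point per library and coloured by group; r is 0.76 for Lama5 and -0.20 for Lamb3. Right, Lamb1 against Lamc1 after the group mean was subtracted from each log2 CPM, with r = 0.56 over 38 libraries.

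Laminin trimers contain Lamc1 in most tissues, so the chains that can join it were correlated with it across hearts, on log2 CPM with group means subtracted (5 pairs, permutation within groups). Lamb1 followed Lamc1 (r = 0.56, rho = 0.57, p = 0.00039, adjusted p = 0.00195), and r was 0.53 without the 2 libraries farthest from the Lamc1 median, V2562 and V2570. The median r of Lamc1 with all other tested genes was 0.01, and 2.00% of genes correlated with it more strongly than Lamb1. By group, r between Lamb1 and Lamc1 was -0.28 among the 8 non_failing hearts and 0.51 among the 8 vehicle hearts, and it was 0.79 under TYA-018 and 0.66 under empagliflozin, with 11 hearts each. On log2(TPM + 1) r in non_failing was 0.62. Lama5 went against Lamc1 (r = -0.53, rho = -0.51, p = 0.00178, adjusted p = 0.00445). For Lama2 and Lama4 r was 0.09 and 0.03 (adjusted p = 0.745 and 0.863), and for Lamb2 r was -0.26 (adjusted p = 0.182).

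The relation of Lama5 with Lamc1 was not the same in other units. On log2(TPM + 1) r was 0.11 (adjusted p = 0.524), and with the GC slope removed it was -0.35 (adjusted p = 0.106). Lamc1 itself followed the slope downward (r = -0.43, adjusted p = 0.0172). The relation of Lamb1 with Lamc1 held in both, at r = 0.48 on log2(TPM + 1) (adjusted p = 0.0163) and r = 0.48 with the GC slope removed (adjusted p = 0.0244), though the rank correlation after that removal missed the threshold (rho = 0.44, adjusted p = 0.0512). Lamc1 also moved with the effective lengths of the libraries, taken as the median log2 ratio of each library's lengths to the mean of all libraries (r = 0.64, adjusted p = 0.00024 over 8 members). So did Lama4 and Lama5, downward (r = -0.41 for each, adjusted p = 0.0289), and Lamb1 (r = 0.37, adjusted p = 0.0447), for which the rank correlation was 0.23 (adjusted p = 0.223). Their part in the relation of Lamb1 with Lamc1 was not tested.

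The genes whose pattern over 38 libraries was most like that of a member were listed by Pearson r of log2 CPM, as a description. For Lamc1 the first was Nid1 (r = 0.79, and 0.79 after group means were subtracted), which encodes nidogen, the linker between laminin and type IV collagen, followed by Fndc3b (0.77) and Hnrnpf (0.76). For Lamb1 the first was Col4a1 (r = 0.73, 0.70 after subtraction), the type IV collagen chain, followed by the transcription factor gene Ets2 (0.69, 0.74 after subtraction) and by Kdr, the VEGF receptor of endothelium (0.67, 0.61 after subtraction). Lama4 was nearest to Ptma (r = 0.86), Phldb2 (0.82) and Far1 (0.81), and Lama2 to Ltn1 (0.74), Bptf (0.70) and Prkd1 (0.69). Lama5 was nearest to Gm15800 (0.93), Ell (0.91) and Fbf1 (0.90), and Lamb2 to Atg2a (0.84), Safb (0.83) and Speg (0.82); Speg is a kinase of striated muscle. The GC content of those with a value was 56.3% for Ell, 57.7% for Fbf1, 60.0% for Atg2a, 56.8% for Safb and 62.6% for Speg, above the median of 50.4% over tested genes. Lama3 was nearest to Srgap2 (0.84), Nav1 (0.83) and Mprip (0.83). For Lamb3 the nearest were Mlf1 (0.75), Gm9747 (0.74) and Cenpf (0.74), and after subtraction of group means these fell to 0.49, 0.52 and 0.59.

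The other genes of the laminin pathway were counted in lists. In HFpEF+Veh against non_failing, 1 of 13 basement membrane partners was called, Agrn, the proteoglycan agrin that links laminin to dystroglycan, which was higher (log2 fold change 0.86, SE 0.24, adjusted p = 0.0359). Over all genes 3.15% were called in this comparison. No partner was called with the GC slope as a covariate or with the length offset. Of the 13, 12 had a positive log2 fold change, with a median of 0.18 against 0.01 over all genes. Under TYA-018 against vehicle all 13 had a negative one, with a median of -0.26 against -0.01, and 2 were called lower. These were Col4a6, a type IV collagen chain (log2 fold change -0.82, SE 0.23, adjusted p = 0.0472), and Col15a1, a collagen of vascular and muscle basement membranes (-0.53, SE 0.14, adjusted p = 0.0315). Both calls were lost without V2523 and V2530. Over all genes 1.93% were called in this comparison. In the same comparison 6 of 6 fibroblast markers (median log2 fold change -0.22) and 5 of 6 endothelial markers (-0.13) had negative values and 5 of 6 cardiomyocyte markers positive ones (0.18), with 2, 2 and 4 at an unadjusted p under 0.05 and none called. Summed CPM in HFpEF+TYA-018 and HFpEF+Veh ran from 378 to 625.1 and 450 to 984 for the fibroblast list, from 597 to 861 and 723 to 888 for the endothelial list and from 26422 to 34482 and 24977 to 31239 for the cardiomyocyte list. Their part in the values of these partners and of the laminins was not tested. Under empagliflozin 11 of 13 were negative, with a median of -0.13 and none called. The comparisons with vehicle share the same vehicle libraries.

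Receptors and their complexes were counted in the same way. None of the 9 laminin receptor genes, 12 tested dystrophin glycoprotein complex genes, 12 dystroglycan glycosylation enzymes and 9 focal adhesion genes was called in HFpEF+Veh against non_failing (edgeR; 2, 0, 2 and 0 had an unadjusted p under 0.05) or under either drug against vehicle, where the counts at an unadjusted p under 0.05 were 1, 2, 2 and 1 for TYA-018 and 0, 0, 4 and 0 for empagliflozin. Over all genes 3.15% were called in HFpEF+Veh against non_failing, 1.93% under TYA-018 and 0.85% under empagliflozin against vehicle. An unadjusted p under 0.05 was found for 15.9%, 17.5% and 10% of all genes in the same order. Against non_failing, Bcam, a receptor for Lama5-containing laminins, was higher in HFpEF+TYA-018 (log2 fold change 0.22, SE 0.04, adjusted p = 0.00111) and in HFpEF+SGLT2i (0.14, SE 0.04, adjusted p = 0.0391). In the dystrophin complex 1 of 12 genes was called higher and 1 lower in each of the same 2 comparisons. The lower was Sntb1, a syntrophin gene (-0.52, adjusted p = 0.0397, and -0.53, adjusted p = 0.0399). Over all genes 7.39% were called in HFpEF+TYA-018 and 6.45% in HFpEF+SGLT2i against non_failing. Agrn was also higher in HFpEF+SGLT2i than in non_failing (0.81, adjusted p = 0.0219). This comparison shares its non_failing libraries with that of HFpEF+Veh, and other fits of this Agrn value are not given here. Among laminin chains outside the 8 members, Lama1 reached at most 3 counts in any library and Lamc3 at most 0.805 CPM.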

How the data were processed

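Left ventricular RNA from 38 mice was sequenced after polyadenylated RNA was captured with a stranded kit. The authors trimmed reads with fastp, quantified transcripts with Salmon 1.6.0 against a mouse GENCODE assembly (the submitters' notes name a human build) and used tximport to obtain gene-level values. The deposited values are estimated counts per gene, which the authors made from the transcript estimates, and they were rounded to whole numbers here. The deposited TPM values are scaled by the authors for length and library. The deposited effective lengths (another unit, bases per gene) link them.

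Group and mouse number came from the titles. The members and gene lists were chosen with earlier results of these data known. Genes were kept with filterByExpr (13765), scaled with TMM and tested with edgeR 4.0.16 (R 4.3.3) in 1 model of the 4 groups, with Benjamini-Hochberg adjustment over all genes tested and calls at 0.05. By the rule for named genes, all members and the 3 genes nearest in pattern to each are named. Of the called genes in the pathway lists only some are named, at most 3 per list. An SE is the log2 fold change over the root of F. CPM are TMM-scaled, and log2 CPM used a prior count of 2. Correlations used 100000 permutations, and the depth of 21451631 to 59280407 counts sets the precision of low members. Alternatives were limma 3.58.1 on log2(TPM + 1), DESeq2 1.42.0, library size alone, a length offset, no filter, only the 2 groups compared, each library left out, V2523 and V2530 left out, and, added after seeing the data, a GC covariate. On simulated counts for HFpEF+TYA-018 against HFpEF+Veh (13765 genes) 97.0% of changes of 1 on the log2 scale, 62.7% of 0.5 and 31.3% of 0.3 were recovered. The simulated counts held no libraries set apart like V2523 or V2530 and no base composition effects. Only genes with an average log2 CPM above 1 were changed, so recovery in the real data may be lower. Nothing in the labels says more than that the libraries come from separate mice. Some genes are not reported here.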

Additional observations from a re-analysis of the deposited data

Results flagged for a closer look

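In the non_failing group, library V2510 stood apart for Lama3, at 4.62 CPM against 3.47 CPM in the next library and 2.85 CPM in the lowest. The gap between V2510 and the next library was 0.653 of the range of the group, above the critical value of 0.526 for 8 libraries. Of 32 such tests, of 8 members in CPM and in TPM in the non_failing and HFpEF+Veh groups, 1 was marked, and chance marks about 1 in 20; the tests in CPM and TPM of a gene are not independent. The drug groups, with 11 libraries each, were not examined in this way. No member differed between TYA-018 and empagliflozin past the threshold.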

How the results depend on the processing

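No paired analysis was possible because no mouse number occurs in more than 1 group. The cause of the differences below was not tested. For HFpEF+TYA-018 against HFpEF+Veh the members called, 1 in edgeR, were 0 with limma on log2(TPM + 1), with only the 2 groups and without V2523 and V2530, 2 with DESeq2 and 4 with library size alone, and 0 to 2 when 1 library was left out. Library size alone moved the median of all genes by -0.14 in that comparison. For HFpEF+TYA-018 against non_failing 0 were called with limma, the length offset and no filter, and 0 in 12 fits without 1 library. For HFpEF+SGLT2i, library size alone called 1 against HFpEF+Veh, and limma and the length offset called 1 each against non_failing.

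In HFpEF+Veh against non_failing, the log2 fold change of Lama4 became 0.13 (limma), 0.025 (library size alone) and 0.069 (length offset), that of Lamc1 0.070 (limma), 0.038 (library size alone) and 0.042 (GC covariate), and that of Lamb2 -0.074 (GC covariate); without 1 library Lamb2 ran from -0.019 to 0.048 and Lamc1 from -0.064 to 0.010. In HFpEF+TYA-018 against HFpEF+Veh, Lama5 became 0.064 (length offset), and Lamb2 -0.14 (limma), -0.0020 (DESeq2), -0.13 (library size alone), -0.027 (length offset), -0.0081 (no filter), -6.6e-05 (2 groups), -0.030 (without V2523 and V2530) and -0.017 (GC covariate), with -0.028 to 0.031 without 1 library. In HFpEF+SGLT2i against HFpEF+Veh, Lamc1 became -0.12 (limma), -0.065 (library size alone) and -0.057 (length offset), with -0.040 to 0.044 without 1 library. In HFpEF+TYA-018 against HFpEF+SGLT2i, Lama4 became -0.0090 (library size alone). In HFpEF+TYA-018 against non_failing, the GC covariate gave Lama5 -0.15, Lamb1 0.052 and Lamb2 -0.091, and Lamb2 was also -0.044 (limma), -0.045 (library size alone) and -0.0099 (length offset); without 1 library Lamb1 ran from -0.036 to 0.014 and Lamb2 from -0.017 to 0.031. In HFpEF+SGLT2i against non_failing, the GC covariate gave Lama3 -0.074 and Lamc1 0.074, and without 1 library Lama2 ran from -0.051 to 0.011 and Lamc1 from -0.073 to 0.022. The correlation with Lamc1 became 0.11 for Lama5 and 0.37 for Lamb2 on log2(TPM + 1), and -0.35 and 0.068 with the GC covariate. In counts simulated for HFpEF+TYA-018 against HFpEF+Veh, 62.7% of changes of 0.5 on the log2 scale were recovered, so members not called there may still differ. For the other comparisons the recovery of changes was not simulated, so members not called there may differ too.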
